A study of Danio rerio with 2 samples.

Results

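The small heat shock and chaperone genes described here are 10 zebrafish genes that were chosen by name: the muscle chaperones hspb1, hspb7, cryaba, cryabb, unc45b and hsp90aa1.1, the general cytosolic chaperones hsp90ab1 and hspa8, the endoplasmic reticulum chaperone hspa5 and the secreted chaperone clu. They were matched by symbol to the Ensembl gene IDs of both count tables, which together list 18139 IDs. Of the 10 members, 6 had a row in both tables, under 7 IDs. These were hspb1 (ENSDARG00000041065), unc45b (ENSDARG00000008433), hsp90aa1.1 (ENSDARG00000010478), hsp90ab1 (ENSDARG00000029150), hspa8 (ENSDARG00000068992 and ENSDARG00000037403) and clu (ENSDARG00000010434). The IDs that the symbol table gives for hspb7, cryaba, cryabb and hspa5 matched no row, and these 4 genes were not analysed here.

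The hearts were cryoinjured ventricles of adult zebrafish, 1 taken 3 days post injury (dpi) and 1 taken 7 dpi, both titled WT, taken as wild type. Each frozen ventricle was cut into 12 µm cryosections from the injured area toward the uninjured, remote myocardium, and each section gave a CEL-seq library, a method that barcodes messenger RNA and amplifies it linearly. With 1 heart a day there are no replicates, sections of a heart are not replicates of a condition, and no difference below has a replicate check. Every interval is an exact 95% interval of the counts, and it covers counting error only, since the sources do not say whether molecular identifiers were used and reads without them are not separate molecules. Where a domain held no count, the fold is given as a bound against 3 counts, which is not an exact limit and can exceed the lower end of the exact interval.

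Chaperones keep proteins folded: small heat shock proteins such as HspB1 and αB-crystallin hold unfolding proteins without using ATP and, in heart muscle, bind to the cytoskeleton and the sarcomere under stress. The Hsp70 and Hsp90 families fold proteins in cycles driven by ATP, with Hspa8 and Hsp90ab1 as the constitutive cytosolic forms and Hspa5 as the Hsp70 of the endoplasmic reticulum. Unc45b is a co-chaperone that folds myosin motor domains and works together with Hsp90aa1 in zebrafish skeletal muscle, and clusterin, the product of clu, is secreted and binds misfolded proteins outside the cell.

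Of 40 sections at 3 dpi, 35 had enough counts to be kept, with totals of 39495 to 302404 and a median of 98915. Of 38 at 7 dpi, 24 were kept, with totals of 20832 to 813848 and a median of 66331, and section 34 alone held 25.5% of the kept counts. The kept sections of each heart were divided into contiguous domains that are called injury side, middle and remote side. The members and the genes of the chaperone and marker lists used below were left out of this division. They were sections 1 to 10 (5 kept), 11 to 20 (10 kept) and 21 to 40 (20 kept) in the 3 dpi heart, and sections 1 to 7 (5 kept), 8 to 21 (12 kept) and 22 to 34 (7 kept) in the 7 dpi heart. The summed contractile genes were taken as a measure of cardiomyocytes. From injury side to remote side they stood at 15145, 43545 and 66015 counts per 1000000 (CPM) at 3 dpi, and at 345.8, 1709 and 30774 CPM at 7 dpi. The 7 dpi injury side thus held almost no muscle transcripts, with 15 of 23 contractile IDs at 0 there, among them TNNT2 and MYH6, whereas the 3 dpi injury side did hold them. Of the 19 contractile IDs with at least 50 counts at 7 dpi, 18 were at least 2-fold higher on the remote side and 1 on the injury side. Summed leukocyte markers ran the other way, at 8753, 3377 and 1022 CPM at 3 dpi and at 6098, 6173 and 2128 CPM at 7 dpi. The domain names give position along a heart and not the same tissue in both hearts. Remote-side sections 22, 23 and 26 at 7 dpi had contractile sums of 7867, 11672 and 14668 CPM, below the pooled 3 dpi injury side. Sections 35 to 38 of that heart were not kept. In whole sections, fewer cells of a type and less RNA per cell cannot be told apart.

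At 3 dpi hspb1, the member that carried nearly all muscle chaperone counts, was higher on the remote than on the injury side, whereas hsp90ab1 and hspa8 were lower there. unc45b and hsp90aa1.1 had intervals across 1. From the middle to the remote side hspb1 was lower too, at 0.892 of the middle (0.860 to 0.926). hsp90ab1 stood at 0.639 (0.605 to 0.675) and hspa8 at 0.592 (0.553 to 0.634). The median gene was also lower over this step, at log2 −0.34, and hspb1 stood 0.17 above it. The rise of the muscle sum turned with domains of equal section number (log2 −0.081). For every 100 counts of hsp90ab1 and hspa8 together, the 3 measured muscle members together had 40.7 counts on the injury side (36.7 to 45.1). They had 120.3 in middle sections (114.9 to 126.0) and 173.5 on the remote side (168.0 to 179.2). No scaling can change this quotient within a section, while the pooled values weigh sections by their counts. Over sections this quotient was 13.4, 65.7, 50.2, 34.8 and 22.5 in the 5 injury-side sections. It ranged from 73.8 to 171.1 in the middle, with a median of 121.9, and from 83.7 to 271.4 on the remote side, with a median of 160.4. No injury-side section reached the lowest section of either other domain, while the middle and the remote side overlapped. At 7 dpi the same quotient was 1.26 on the injury side (0.743 to 1.995), 1.97 in middle sections (1.68 to 2.29) and 16.9 in remote-side sections (16.2 to 17.6). Section 34 held 1645 of the 2413 muscle counts of the remote side, where the median of sections was 11.1. The 7 remote-side sections ranged from 5.13 to 33.3, all above the highest middle section at 4.13. They were at 5.31, 5.13 and 6.197 in sections 22, 23 and 26, near the upper middle sections, and at 16.2, 12.7, 11.1 and 33.3 in sections 30, 31, 32 and 34.

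**Figure D1:**
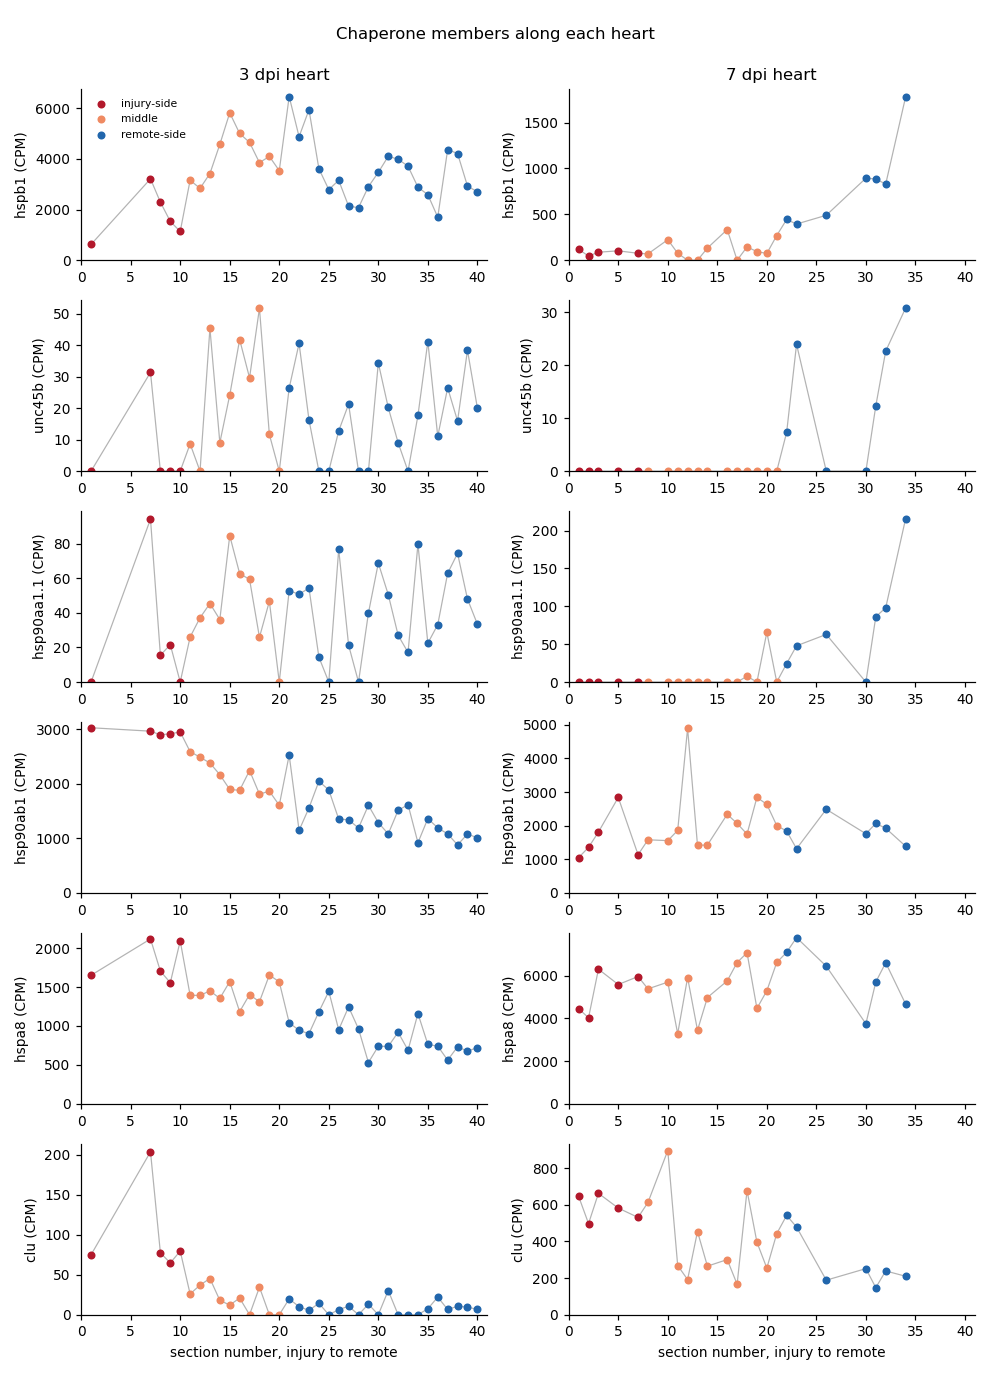
CPM of the 6 measured members (rows) against section number from injury to remote in the 3 dpi heart (left) and the 7 dpi heart (right), with points coloured by domain, vertical scales set for each panel and only the kept sections drawn. At 3 dpi hspb1 peaks at 5823 CPM in section 15 and 6465 CPM in section 21 while hsp90ab1 and hspa8 decline outward, and at 7 dpi hspb1 and hsp90aa1.1 are highest in section 34, at 1776 and 215.0 CPM.

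The small heat shock protein gene hspb1 carried most counts of the muscle group, with 14459 of 14711 counts in the 3 dpi heart and 2308 of 2598 in the other. The 5 injury-side sections of the former measured 625.5, 3215, 2293, 1534.5 and 1136 CPM of hspb1. Middle sections ranged from 2840 to 5823 CPM with a median of 3979, and remote-side sections from 1702 to 6465 CPM with a median of 3314. The lowest levels lay in the outermost and innermost injury-side sections, the highest in sections 15, 21 and 23 on either side of the step from middle to remote side, and section 7 of the injury side stood above the lowest sections of both other domains.

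Pooled over domains, hspb1 measured 1912 CPM on the injury side, 4155 in the middle sections and 3705 in the remote-side ones at 3 dpi. The middle was 2.17-fold above the injury side (1.98 to 2.39) and the remote side 1.94-fold (1.77 to 2.12). In CPM the middle exceeded the remote side by 1.12-fold (1.08 to 1.16). From middle to remote side the median gene fell more (log2 −0.34) than hspb1 (log2 −0.17), so relative to it hspb1 was not lower there. Because the peak lies mid-heart, the direction depended on where the domains ended: with equal numbers of sections in each, the first domain took in sections 1 to 17 and hspb1 was then 1.06-fold higher there than in the remote domain (log2 −0.085). With the 5 shallow sections 2 to 6 included, the domains were found anew. The injury side was then sections 1 to 6, while sections 7 to 19 formed the middle. Over that injury side the remote side, sections 20 to 40, was 5.17-fold higher in hspb1.

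The 5 injury-side sections of the 7 dpi heart measured 119.6, 45.2, 87.5, 102.7 and 75.8 CPM of hspb1. Middle sections ranged from 0 in 3 sections to 334.2 CPM with a median of 85.4, and the 7 remote-side sections from 394.6 to 1776 CPM with a median of 829.8. Every remote-side section was above every other section, and the injury side and the middle overlapped. The remote side, at 1122 CPM, was 12.4-fold above the injury side at 90.2 CPM (7.85 to 21.02), and section 34 held 67.7% of its remote-side counts. Without section 34 the difference was 7.01-fold. Endothelium markers also rose outward in this heart, from 30.1 through 307.4 to 910.8 CPM summed over 10 IDs, with 8 of them at 0 on the injury side, and their part in the course of hspb1 and of hsp90aa1.1 was not tested. The middle, at 143.6 CPM, was 1.59-fold above the injury side, with an interval that included no difference (0.975 to 2.76).

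**Figure D2:**
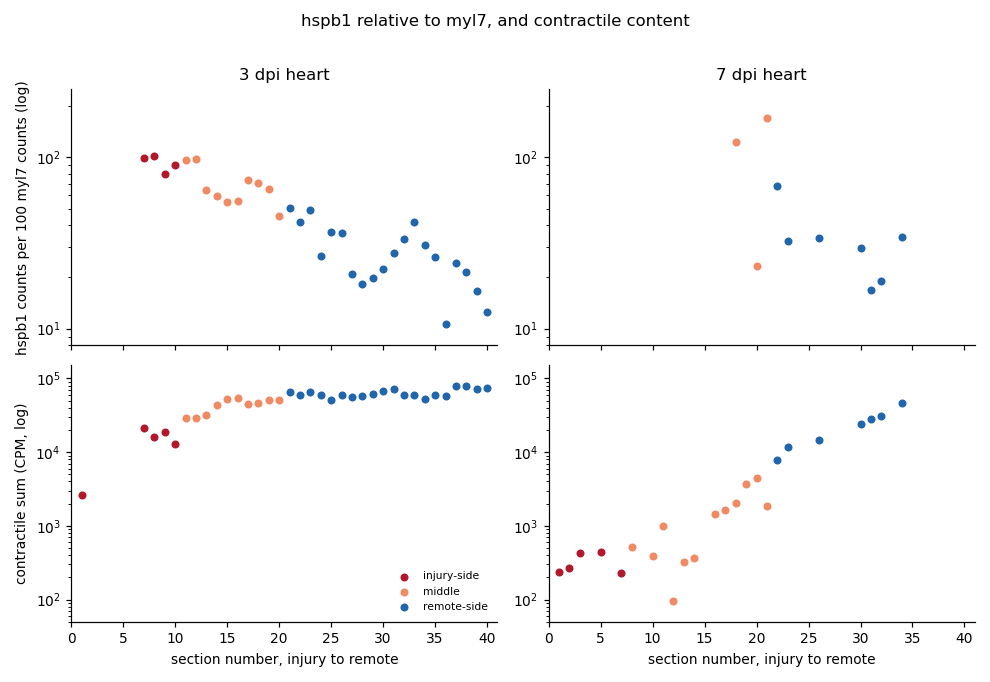
Top, hspb1 counts per 100 myl7 counts in each section with at least 20 myl7 counts; bottom, the summed CPM of contractile genes; both on log axes against section number in the 3 dpi heart (left) and the 7 dpi heart (right), coloured by domain. At 3 dpi the ratio declines from 79.8 to 101.4 on the injury side to 10.7 to 50.6 on the remote side while the contractile sum rises from 15145 CPM pooled on the injury side to 66015 CPM on the remote side.

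Set against myl7, the atrial and ventricular myosin light chain gene of zebrafish cardiomyocytes, hspb1 ran in the other direction. At 3 dpi the 4 injury-side sections with at least 20 myl7 counts had 99.5, 101.4, 79.8 and 90.5 hspb1 counts per 100 myl7 counts. Middle sections had 45.3 to 97.1, with a median of 65.0, and remote-side sections 10.7 to 50.6, with a median of 26.2. The ratio was highest in the sections nearest the injury, where the injury side and the middle overlapped, and lowest in section 36. Pooled, it fell from 98.6 through 64.7 to 26.9, and the remote side was at 0.272 of the injury side (0.240 to 0.309). With the sum of contractile genes in place of myl7 the order was the same, at 126.2, 95.4 and 56.1 hspb1 counts per 1000 contractile counts. myl7 itself rose 7.11-fold from injury side to remote side (6.52 to 7.78), more than the contractile sum, so the size of the ratio depends on the reference chosen. The ratio is not a level per cardiomyocyte, because hspb1 counts from any other cells enter it. The part of such cells in its course was not tested.

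At 7 dpi the injury side held 18 hspb1 and 4 myl7 counts, too few for a ratio in any section. In the middle, only 3 sections passed 20 myl7 counts, with 122.6, 23.1 and 169.6 hspb1 counts per 100 myl7. The remote-side sections had 16.8 to 67.9 with a median of 32.7, highest in section 22, the section nearest the injury, so 1 of the 3 middle sections lay within the remote-side range. Pooled over all kept sections, the ratios were 135.3 for the middle and 30.5 for the remote side, 4.43-fold apart (3.45 to 5.71). The pooled middle value also takes in the sections under 20 myl7 counts, which raise it. Section 10, for example, added 41 hspb1 and 0 myl7 counts.

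The myosin co-chaperone gene unc45b was near the detection limit, with 80 counts in the 3 dpi heart and 40 in the 7 dpi heart. In the former only 1 of 5 injury-side sections had a count, against 8 of 10 middle and 15 of 20 remote-side sections. Levels were 7.56, 23 and 20.8 CPM across the domains, and the remote side was 2.75-fold above the injury side with an interval that included no difference (0.727 to 23.3). At 7 dpi all 40 counts fell on the remote side, in 5 of its 7 sections at 0 to 30.7 CPM. For the count of 0 on the injury side, the floor of 3 counts over the domain is 15.03 CPM, and the exact upper limit was 18.5 CPM. Against that floor the remote-side level of 21.04 CPM was 1.40-fold higher, while the lower end of the exact interval was 1.09-fold. The 12 middle sections, also at 0, had a floor of 2.74 CPM and an exact upper limit of 3.37 CPM.

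The Hsp90 alpha gene hsp90aa1.1 had 172 counts in the 3 dpi heart and 250 in the 7 dpi heart. In the former its 5 injury-side sections measured 0, 94.1, 15.5, 21.6 and 0 CPM, the middle 0 to 84.6 CPM and the remote side 0 to 79.7 CPM. The domains overlapped fully, with section 7 of the injury side the highest of the heart, and pooled levels of 30.2, 43.9 and 45.3 CPM gave a difference of remote over injury side of 1.499-fold with an interval across 1 (0.737 to 3.55). At 7 dpi it was at 0 in all 5 injury-side sections and in 10 of 12 middle sections. The 7 remote-side sections measured 24.4, 47.8, 62.8, 0, 86.1, 98.1 and 215.0 CPM, lowest in section 30, and middle section 20, at 65.7 CPM, lay within their range. Pooled, the remote side held 240 counts, 126.2 CPM, 8.40-fold above the injury-side floor and 13.8-fold above the middle at 9.15 CPM (7.37 to 29.1). The lower end of the exact interval of the former was 6.78-fold. Section 34 held 72.9% of those counts, and without it the bound against the injury side was 3.98-fold. Reads shared with its near-identical copy, which has its own ID, could be split between them by the authors' counting, so its level is uncertain.

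The cytosolic Hsp90 gene hsp90ab1 was lower toward the remote side at 3 dpi. Its 5 injury-side sections measured 3027, 2965, 2897, 2918 and 2950 CPM. Middle sections ranged from 1607 to 2590 CPM with a median of 2032, and remote-side sections from 881.2 to 2527 CPM with a median of 1315. All injury-side sections stood above all others, and remote-side sections 21, 24, 25 and 33 stood within the middle range. Pooled levels were 2947, 2107 and 1346 CPM, with the injury side 2.19-fold above the remote side (2.02 to 2.37). Injury-side sections of the 7 dpi heart measured 1052, 1356, 1812, 2841 and 1138 CPM, the middle 1418 to 4896 CPM and the remote side 1315 to 2489 CPM. The domains overlapped, the highest value lay in middle section 12, and remote and injury side, at 1679 and 1664 CPM, differed by 1.01-fold (0.901 to 1.13).

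The constitutive Hsp70 gene hspa8, counted almost wholly under ENSDARG00000068992, was also lower toward the remote side at 3 dpi. The 3 dpi injury-side sections measured 1651, 2118, 1704, 1556 and 2093 CPM, the middle 1184 to 1655 CPM with a median of 1399, and the remote side 531.0 to 1445 CPM with a median of 832.3. Neighbouring domains overlapped, but no remote-side section reached the injury side. The injury side, at 1844 CPM pooled, was 2.23-fold above the remote side at 827.7 CPM (2.02 to 2.46), with the middle between them at 1399 CPM. At 7 dpi sections ranged from 3279 to 7773 CPM, and the pooled levels of 5507, 5804 and 5834 CPM gave a remote over injury difference of 1.06-fold (0.996 to 1.13). The other ID, ENSDARG00000037403, had 3 and 15 counts in the hearts, and reads shared between the IDs would make either value uncertain.

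The secreted chaperone gene clu had its highest pooled level on the injury side in both hearts, although at 7 dpi the injury side and the middle were not told apart by their counts. In the 3 dpi heart, injury-side sections measured 75.1, 203.9, 77.5, 64.8 and 79.7 CPM, the middle 0 to 45.4 CPM and the remote side 0 to 30.3 CPM. All 5 injury-side sections were above all 30 others, on 70 counts in the heart, and the pooled 105.8 CPM was 12.4-fold above the remote side at 8.54 CPM (6.88 to 22.5). In the 7 dpi heart, injury-side sections measured 645.75, 497.3, 662.2, 581.8 and 530.8 CPM, the middle 166.4 to 895.6 CPM with a median of 348.1, and the remote side 147.7 to 541.7 CPM with a median of 238.9. Middle sections 10 and 18, at 895.6 and 677.7 CPM, stood above every injury-side section. Sections 22 and 23 of the remote side lay at injury-side or middle levels and sections 26 to 34 at 251.6 CPM or less. Pooled levels of 611.3, 535.2 and 296.6 CPM placed the injury side 2.06-fold above the remote side (1.68 to 2.51) and 1.14-fold above the middle (0.932 to 1.39). Leukocyte markers, like clu, were lowest on the remote side of both hearts, as given above, and their part in its level was not tested.

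Over all genes with at least 50 counts, 15.8% at 3 dpi stood 2-fold or more higher toward the remote side and 33.8% stood 2-fold or more lower, and the median gene stood at log2 −0.54. Of the 6 members, 1 (unc45b) was at least 2-fold higher, on 2 injury-side counts and with an interval across 1 (0.727 to 23.3). The 3 members at least 2-fold lower were hsp90ab1, hspa8 and clu. Of all genes, 29.3% stood lower than hsp90ab1 and 28.6% lower than hspa8. Median-of-ratios scaling moved every gene by 0.58 on the log2 scale in this comparison, so differences are also given relative to the median gene, which such a scaling cannot change: hspb1 stood 1.498 above it, hsp90ab1 0.59 below it (log2 −0.59), hspa8 0.61 below it (log2 −0.61) and clu 2.94 below it (log2 −2.94). Under that scaling the injury-side excess of hsp90ab1 and hspa8 was 1.47-fold and 1.49-fold, still in the same direction. At 7 dpi 31.1% of genes stood 2-fold or more higher toward the remote side and 15.4% lower, with a median of log2 0.20. Of the 5 members with at least 50 counts, hspb1 and hsp90aa1.1 were at least 2-fold higher, clu was at least 2-fold lower, and hsp90ab1 and hspa8 were neither.

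The remaining chaperone genes were described by lists ordered by compartment. Only genes with at least 50 counts in a heart could be compared, and the percentages of all genes just given apply to each count. Among the other small heat shock proteins and muscle co-chaperones, 4 of 5 at 3 dpi were at least 2-fold higher on the remote side and none lower, with a median of log2 1.34. The small heat shock protein gene hspb6 measured 79.3, 308.4 and 202.4 CPM, with the middle highest as for hspb1, and was 2.55-fold higher on the remote than on the injury side (1.65 to 4.15). HSPB2 had 0 counts on the injury side and 58 on the remote side, 1.90-fold higher against the floor of 3 counts. HSPB3 (2 and 52 counts) and BAG3, a co-chaperone of HspB8 (1 and 36 counts), had intervals across 1. At 7 dpi 3 of 4 were at least 2-fold higher on the remote side, with a median of 2.07. hspb6 went from 0 to 500 counts, 17.5-fold against the floor of 3 counts. HSPB8 went from 25.1 to 108.9 CPM, 4.34-fold (1.83 to 13.5). Most counts of each lay in 1 section (53.8% and 60.5%). BAG3 had 1 count on the injury side and 46 on the remote side.

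**Figure D3:**
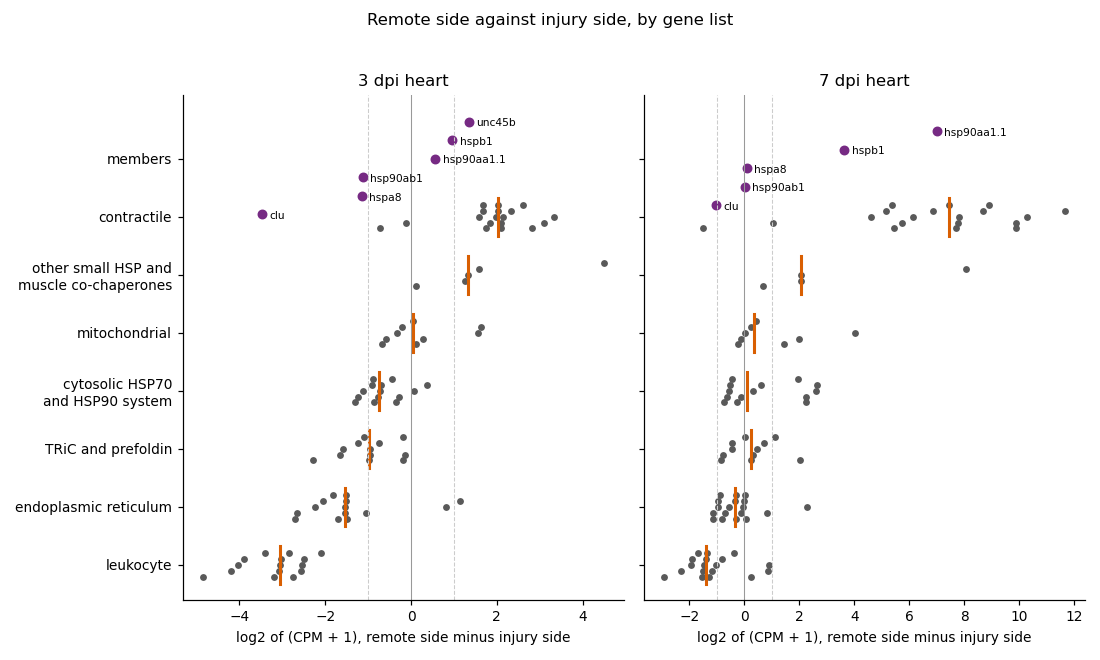
Difference of remote side minus injury side on the log2(CPM + 1) scale for each gene with at least 50 counts in the 3 dpi heart (left) and the 7 dpi heart (right), by list, with named members in purple at the top, orange bars at list medians and dashed lines at 2-fold. At 3 dpi the median is 1.34 for muscle co-chaperones and −1.54 for endoplasmic reticulum chaperones, and at 7 dpi 2.07 and −0.33.

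Endoplasmic reticulum chaperones lay farthest toward the injury at 3 dpi. Of 14 measured, 12 had at least a 2-fold excess on the injury side and 1 had it on the remote side, with a median of log2 −1.54 against −0.54 for all genes. PPIB, a prolyl isomerase that acts on procollagen, measured 1009, 738.1 and 348.3 CPM, 2.90-fold higher on the injury side (2.52 to 3.32). HSP90B1, the Hsp90 of the endoplasmic reticulum, measured 370.2, 193.4 and 57.9 CPM, 6.39-fold higher (4.91 to 8.28). FKBP9 was 4.83-fold higher (3.17 to 7.22) and the disulfide isomerase gene PDIA4 2.91-fold (1.67 to 4.83). XBP1, a transcription factor of the unfolded protein response, was 3.90-fold higher on the injury side (3.04 to 4.97), the only 1 of 4 stress regulators measured that passed 2-fold. Summed over the list, sections ran from 1813 to 2750 CPM on the injury side, 1027 to 2200 CPM in the middle and 379.8 to 1042 CPM on the remote side, so injury and remote side did not overlap. Fibroblast and epicardium markers also fell outward at 3 dpi, from 11110 through 7254 to 3733 CPM, and their part in the course of these genes was not tested.

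At 7 dpi the same list was closer to level, with 2 of 18 measured past 2-fold toward the injury side, 1 toward the remote side and a median of log2 −0.33. HSP90B1 measured 766.7, 622.1 and 347.1 CPM, 2.21-fold higher on the injury side (1.84 to 2.64), and FKBP14 365.8, 348.6 and 164.6 CPM, 2.22-fold (1.70 to 2.88). SDF2 was past 2-fold toward the remote side on 1 injury-side count, with an interval across 1 (0.975 to 227.9). The sums of the domains were 3543, 3327 and 2194 CPM. Fibroblast and epicardium markers summed to 16997, 16506 and 16393 CPM, but single markers differed. Of 18 such markers measured, 4 were at least 2-fold higher on the remote side and 3 on the injury side, with a median of log2 −0.37. The part of these markers in the course of the list was not tested.

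**Figure D4:**
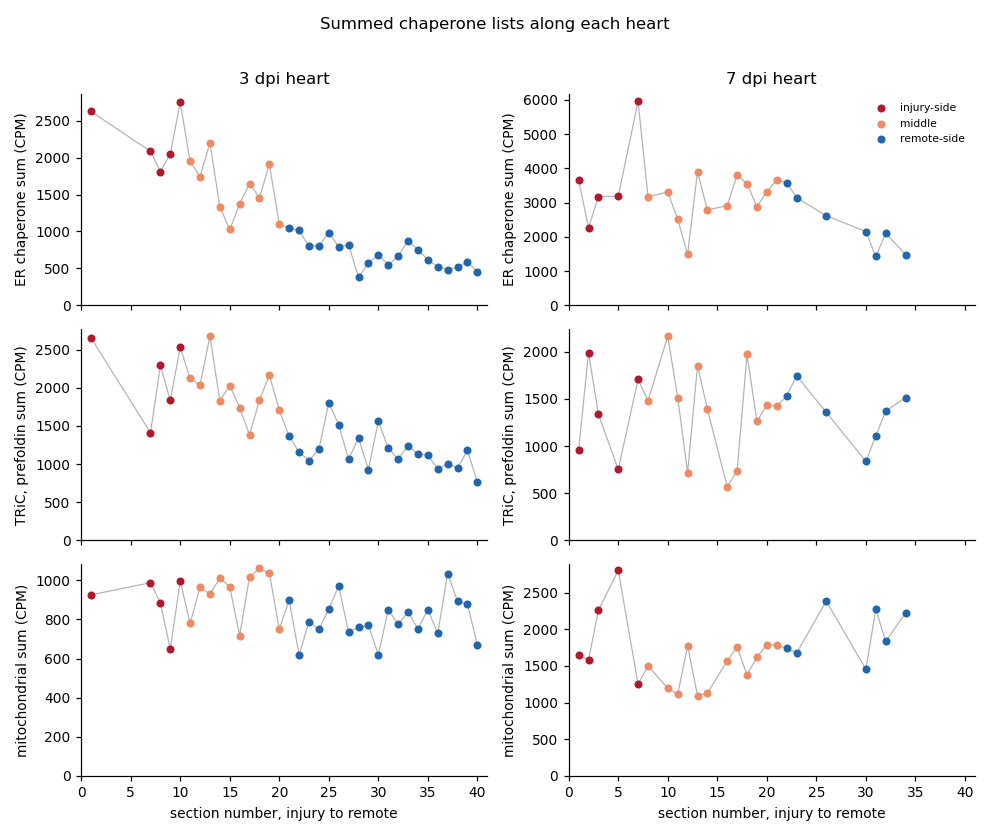
Summed CPM of 3 chaperone lists (rows) against section number in the 3 dpi heart (left) and the 7 dpi heart (right), coloured by domain, with vertical scales from 0 set for each panel. At 3 dpi the endoplasmic reticulum sum falls from 2221 CPM on the injury side to 680.6 CPM on the remote side and the TRiC and prefoldin sum from 2100 to 1140 CPM, while the mitochondrial sum is 895.3 and 835.5 CPM.

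Cytosolic folding machinery at 3 dpi had shares past 2-fold below or near that of all genes. Of 14 measured IDs of the Hsp70 and Hsp90 system, 3 had at least a 2-fold injury-side excess and none a remote-side one, a share below the 33.8% of all genes, and the median was log2 −0.74 against −0.54 for all genes. They were HSPA14 (2.41-fold, 1.46 to 3.83), 1 of the 2 IDs of HSPA4, an exchange factor for Hsp70 (ENSDARG00000018989, 2.54-fold, 1.34 to 4.54, whereas remote over injury was 1.06 for ENSDARG00000004754, 0.384 to 4.05), and FKBP8 (2.21-fold, 1.17 to 3.90). Of 12 measured IDs of TRiC, the ring that folds actin and tubulin, and of prefoldin, which hands it those proteins, 5 had such an excess, a share near that of all genes, with a median of −0.98. The 4 named of these were prefoldin subunit genes: PFDN1 at 5.01-fold (3.22 to 7.66), PFDN4 at 3.21-fold (2.14 to 4.71), PFDN5 at 3.07-fold (1.96 to 4.70) and VBP1 at 2.15-fold (1.36 to 3.27).

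Mitochondrial chaperones had a median of log2 0.05 at 3 dpi, with 2 of 9 at least 2-fold higher on the remote side, DNAJA3 at 3.10-fold (1.18 to 11.5) and 1 of the 2 IDs of CLPX (ENSDARG00000067796) at 3.20-fold (1.35 to 10.001), and none lower. The other CLPX ID, ENSDARG00000029063, was at 1.04-fold (0.558 to 2.13). Their summed level was nearly flat, at 895.3, 922.1 and 835.5 CPM.

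At 7 dpi these lists had medians near that of all genes, 0.10 for the cytosolic system, 0.25 for TRiC and prefoldin and 0.34 for mitochondrial chaperones. In the cytosolic system 5 of 14 were at least 2-fold higher on the remote side, among them the co-chaperone genes BAG2 (40.1 and 158.8 CPM, 3.96-fold, 1.99 to 9.26), FKBP4 (10.02 and 51.0 CPM, 5.09-fold, 1.37 to 42.6), HSPA4 under ENSDARG00000018989 (7.03-fold, 1.22 to 281.8) and bag6 (5.46-fold, 0.937 to 219.6). That ID, which had the injury-side excess at 3 dpi, rests on 1 injury-side count at 7 dpi, and the other HSPA4 ID (ENSDARG00000004754) was at 0.918-fold (0.328 to 3.56). Of TRiC and prefoldin genes 2 of 11 (VBP1 and PFDN2), of mitochondrial genes 3 of 8 (CLPP, CLPX under ENSDARG00000029063, and GRPEL2) and of stress regulators 2 of 6 (atf6 and atf4b) were at least 2-fold higher on the remote side, each on 4 or fewer injury-side counts and with an interval across 1, and none was 2-fold lower.

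Between the hearts, which differ in animal, library and day so that these cannot be told apart, hspa8 and clu were higher at 7 dpi and hspb1 was lower. Over all kept sections hspa8 measured 1036 CPM at 3 dpi and 5803 CPM at 7 dpi, 5.60-fold (5.41 to 5.80). Its highest 3 dpi section, at 2118 CPM, lay below its lowest 7 dpi section, at 3279 CPM. clu rose from 17.9 to 397.9 CPM, 22.3-fold (17.5 to 28.7), and its sections overlapped only through the injury side of the 3 dpi heart, where 1 section reached 203.9 CPM. hsp90ab1 measured 1640 and 1773 CPM, 1.08-fold apart (1.04 to 1.12), a direction that turned under both other scalings. hspb1 fell from 3694 to 722.6 CPM, 5.11-fold lower at 7 dpi (4.89 to 5.34), and 10.2-fold lower without section 34. Over all kept sections myl7 fell by a similar factor, from 11186 to 2225 CPM, 5.03-fold (4.90 to 5.16). Muscle-rich sections, defined below, were 28 of 35 kept at 3 dpi and 2 of 24 at 7 dpi, with section 34 among the latter. The part of this unequal muscle content in the fall of hspb1 was not tested. In the comparison over all kept sections 22.3% of the 3497 genes with at least 50 counts in both hearts stood at least 2-fold higher at 7 dpi. A further 13.9% stood at least 2-fold lower, and 2 of 5 members were higher and 1 lower.

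**Figure D5:**
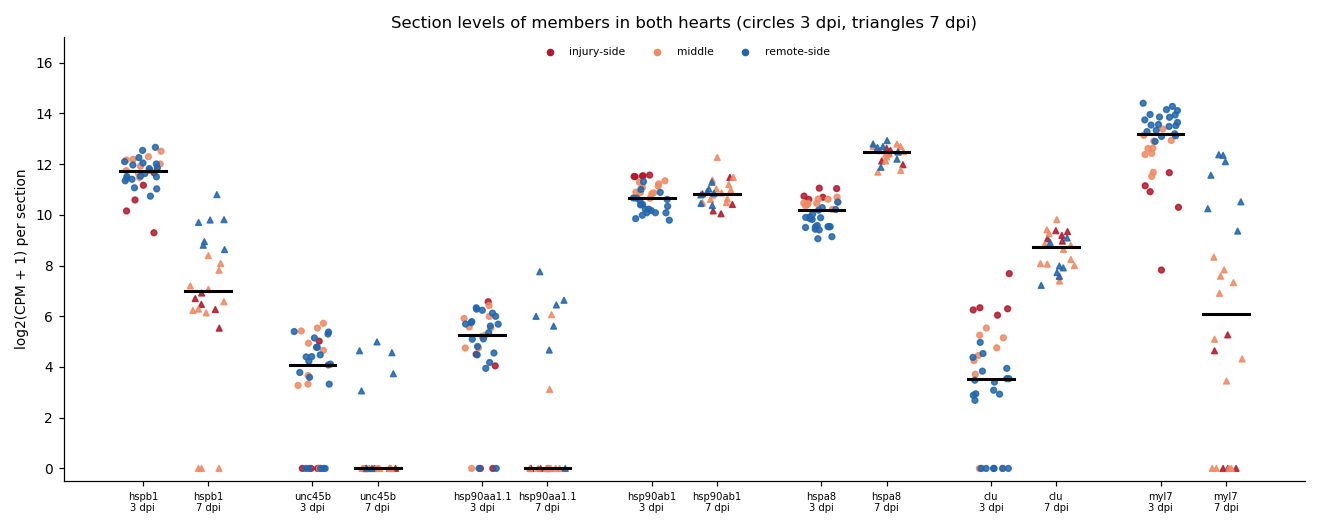
Levels of the measured members and of myl7 in each kept section as log2(CPM + 1), circles for the 3 dpi heart and triangles for the 7 dpi heart, coloured by domain, with black bars at the median of sections. The sections of hspa8 do not overlap between the hearts (at most 2118 CPM at 3 dpi and at least 3279 CPM at 7 dpi), whereas those of hsp90ab1 do.

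To compare muscle-rich tissue, sections with at least 30000 CPM of contractile genes were set side by side, 28 at 3 dpi (sections 13 to 40) and 2 at 7 dpi (sections 32 and 34). The sets were not equal in muscle content, with contractile sums of 62134 CPM at 3 dpi and 41245 CPM at 7 dpi. Section 32 of the 7 dpi heart, at 30724 CPM, was just past the limit. There hspa8 measured 950.3 CPM at 3 dpi and 6600 and 4675 CPM in the 7 dpi sections, 5.58-fold higher when pooled (5.35 to 5.83). clu measured 10.2 CPM at 3 dpi and 238.9 and 210.1 CPM in the 7 dpi sections, 21.5-fold higher (15.1 to 31.5). Leukocyte markers were level between these sets, at 1416 and 1290 CPM, whereas fibroblast and epicardium markers stood at 4385 and 14582 CPM and endothelium markers at 302.7 and 853.5 CPM, and their part in these differences was not tested. On the injury side too, hspa8 was 2.99-fold (2.68 to 3.33) and clu 5.78-fold (3.81 to 9.06) higher at 7 dpi.

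hspb1 in muscle-rich sections measured 3876 CPM at 3 dpi and 829.8 and 1776 CPM at 7 dpi, 2.65-fold lower when pooled (2.52 to 2.78) and 4.67-fold lower without section 34, and myl7 was lower by a similar factor, 2.52-fold (2.46 to 2.59). Per 100 myl7 counts hspb1 was at 31.2 and 29.8, a ratio of 0.954 (0.901 to 1.01). The 2 sections stood at 19 and 34.2, both within the 3 dpi range of 10.7 to 73.5. Per 1000 contractile counts hspb1 was at 62.4 and 35.5, 1.76-fold lower at 7 dpi (1.67 to 1.85), and per myl7 without section 34 it was 1.64-fold lower (1.46 to 1.85), so its direction relative to muscle content depends on the reference and on that section. hsp90aa1.1 rose from 45.8 to 176.6 CPM, 3.85-fold (3.12 to 4.77), or 2.14-fold without section 34, and from 0.369 to 3.59 counts per 100 myl7 counts, 9.73-fold (7.87 to 12.1), with 2.25 and 4.14 in the 7 dpi sections against at most 0.936 in any muscle-rich 3 dpi section. Its rise was 5.81-fold per contractile count (4.70 to 7.18) and 6.09-fold per myl7 count without section 34 (4.16 to 8.73). The closely similar HSP90AA1 (ENSDARG00000024746) had 26 counts over all kept sections at 3 dpi and 651 at 7 dpi. Reads shared between these IDs would make the rise of hsp90aa1.1 uncertain. unc45b measured 22.5 and 28.1 CPM, 1.25-fold with an interval across 1 (0.809 to 1.89). Per 100 myl7 counts it stood at 0.181 and 0.570, 3.15-fold higher at 7 dpi (2.04 to 4.78) with both sections within the 3 dpi range, and per contractile count it was 1.88-fold higher (1.22 to 2.85). For the 3 muscle members together the quotient to myl7 was 1.06-fold higher at 7 dpi, but 1.48-fold lower without section 34 and 1.59-fold lower relative to the contractile sum, so no direction is given for it.

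Across the kept sections of a heart, which share that heart and its library preparation and differ in depth, the genes most like each member were taken by Pearson r of log2(CPM + 10) among genes with at least 200 counts. At 3 dpi (35 sections, 1551 genes compared) hspb1 was most like an ID without a symbol (ENSDARG00000011538, r 0.83), FHL1 (r 0.81), a LIM protein gene, and MYL9 (r 0.80), a myosin light chain gene. Its r with the contractile sum was 0.72. At 7 dpi (24 sections, 1507 genes compared) it was most like rcan1a (r 0.82), which encodes a calcineurin regulator, the titin gene TTN (r 0.80) and SLC6A4 (r 0.80), and its r with the contractile sum was 0.76.

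The 3 nearest genes of each other member with at least 200 counts are given next. hsp90ab1 at 3 dpi was most like the keratin gene krt8 (r 0.90), the cytoplasmic actin gene actb2 (r 0.90) and an ID without a symbol (ENSDARG00000042502, r 0.89), and hspa8 was most like grna.2 (r 0.89), the tubulin gene tuba8l4 (r 0.88) and zgc:153867 (r 0.87). hsp90ab1 and hspa8 had r 0.76 with each other at 3 dpi and 0.18 at 7 dpi. At 7 dpi the closest genes were RCOR1 (r 0.70), srgn (r 0.63) and sdc4 (r 0.62) for hsp90ab1. For hspa8 they were HNRNPAB (r 0.69), rps27a (r 0.68) and the mitochondrial chaperone gene HSPD1 (r 0.68). For clu they were CXCL12 (r 0.81), a chemokine gene, an ID without a symbol (ENSDARG00000061219, r 0.71) and SSR2 (r 0.69). For hsp90aa1.1 they were CKMT2 (r 0.92), the mitochondrial creatine kinase gene of muscle, PCBP4 (r 0.92) and si:dkey-164f24.2 (r 0.92). At 7 dpi hsp90aa1.1 had r 0.80 with the contractile sum and r 0.61 with hspb1.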

How the data were processed

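The deposited tables, 1 per heart, hold raw counts for each gene ID and section, without normalization. No value was negative or fractional; the automatic unit test did not examine these columns, named by bare section numbers. TRIzol extraction and CEL-seq amplification were used, per the labels' protocols, and BWA 0.6.2 is named in the submitters' processing notes. Genome build, annotation and molecular identifiers are not given in the sources used here. Section numbers were taken as the labelled order from injury to remote.

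Symbols were looked up by ID in a names table. Sections needed 20% of the heart's 75th percentile of section totals (24571 and 16192 counts). Spike-in rows were left out of totals (0.00429% and 0.260% of counts). CPM is counts over the section total. Domains are 3 contiguous segments found from the 2000 unlisted genes of highest mean CPM. Folds of pooled CPM carry exact conditional binomial intervals; lists use log2(CPM + 1) and genes with at least 50 counts. Floors are 3 counts per domain. No test between conditions was possible with 1 heart a day. The calculation was tested on simulated data. Members and lists were chosen with earlier results of these data known. Named were all members, the 4 genes of most counts past 2-fold per list, and the 3 genes of highest r per member. Python 3.11.15, pandas 2.3.3 and SciPy 1.17.1 were used.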

Additional observations from a re-analysis of the deposited data

How the results depend on the processing

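Values are log2 differences, and the causes of the changes were not tested except where a setting's own construction shows them. The 5% and 40% minimums also changed the tissue compared, since the domains were found anew. At 3 dpi the injury side became sections 1 to 6 with 5% and 7 to 12 with 40%. The remote side became sections 20 to 40 with 5% and stayed at 21 to 40 with 40%. At 3 dpi the muscle chaperone sum, remote over injury side, was 0.95; it was 2.38 and 0.47 with minimum section totals of 5% and 40%, 1.53 with median-of-ratios scaling, 1.35 with CPM without mitochondrial-genome genes and the 2 IDs of highest count, 0.58 with exact lower-case symbols (hsp90aa1.1 alone) and −0.081 with equal domains, whose first domain held sections 1 to 17. hspb1 alone turned likewise, to −0.085. hsp90ab1 and hspa8 together were at −1.14, and at −0.97, −1.004, −1.03, −0.56 and −0.74 with the 5% and 40% minimums, equal domains, median-of-ratios and reduced CPM. Per myl7 the muscle sum was at −1.88, and at −1.60 with equal domains, −1.17, −1.37 and −1.14 with the contractile sum, cmlc1 and tnnt2a in place of myl7, references added after seeing the data.

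At 7 dpi the muscle sum was 3.79, and 2.78 with the 5% minimum, 2.94 without section 34 (also its section of most counts) and 3.07 with exact symbols. With the 5% minimum the injury side was sections 1 to 23, which took in the whole main middle, and the remote side 30 to 38. With the 40% minimum they were sections 1 to 17 and 30 to 34. hsp90ab1 and hspa8 together were at 0.067, and at −0.22 with the 5% minimum, 0.18 with means of sections and 0.26 without section 34. Per myl7 the muscle sum was at −3.73 on 4 injury-side myl7 counts, −1.41 with the 5% minimum and −6.21 with cmlc1. Between hearts in muscle-rich sections it was 0.079 per myl7, and −0.36 with means of section ratios, −0.57 without the deepest section, −0.62 without the section of most counts, −0.068 with genes of at least 200 counts, and −0.67, −1.08 and −0.65 with the contractile sum, cmlc1 and tnnt2a. Over these 7 group results, 38 of 70 settings stayed within the counting interval and 32 left it. The sign differed in 9 settings: 1 turned a difference whose interval lay off 0, and 8 a difference whose own interval held 0 (1 of the general sum at 7 dpi and 7 of the muscle sum per myl7 between hearts).

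For single members, 91 of 148 settings stayed within the counting interval and 57 left it. The 5% and 40% minimums moved the domains here as above. The sign differed in 10, of which 4 were within the 7 dpi heart under planned settings, where the main interval held 0: hsp90ab1 went from 0.013 to −0.21 with the 5% minimum, −0.0097 with the 40% minimum and −0.021 with median-of-ratios, and hspa8 from 0.083 to −0.22 with the 5% minimum. Of the 6 that turned a difference whose interval lay off 0, 1 was hspb1 at 3 dpi and the others were between hearts, in alternatives added after seeing the data: hsp90aa1.1 over all kept sections, from 0.83 to −0.64 with means of sections and −0.48 without section 34, and hsp90ab1, from 0.11 to −0.077 and −0.17 over all kept sections with median-of-ratios and reduced CPM and from 0.082 to −0.19 in muscle-rich sections with reduced CPM. hspa8 and clu kept their direction between hearts, at 2.205 to 2.80 and 4.06 to 4.69. Ratios to myl7 do not change with scaling, exact symbols gave no value for hsp90ab1, hspa8 or myl7 ratios, and means of section ratios none for the 7 dpi injury side. No paired analysis was possible because each day has 1 heart.

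Depth limits unc45b, hsp90aa1.1 and clu at 3 dpi, on 80, 172 and 70 counts.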

Other observations

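Further chaperone IDs outside the lists were named after their values were seen, and they were not kept out of the search for the domains. The small heat shock protein gene hspb9l (ENSDARG00000002204) measured 253.1, 768.4 and 621.2 CPM across the 3 dpi domains, with the middle highest, and was 2.45-fold higher on the remote than on the injury side (1.92 to 3.18). At 7 dpi it had 0 injury-side counts, 25.6 CPM in the middle and 363.4 CPM on the remote side. The remote side was 24.2-fold above the injury-side floor of 3 counts, with a lower end of the exact interval of 19.6-fold.

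The Hsp70 gene hsc70 (ENSDARG00000012381) measured 49.1, 81.5 and 148.2 CPM at 3 dpi, 3.02-fold higher on the remote side (1.74 to 5.72), the opposite direction to hspa8. At 7 dpi it measured 0, 12.8 and 76.8 CPM, with the remote side 5.11-fold above the injury-side floor and a lower end of the exact interval of 4.10-fold. HSP90AA1 (ENSDARG00000024746), whose product is closely similar to that of hsp90aa1.1, had 26 counts at 3 dpi and 651 at 7 dpi. Its levels were 15.1, 10.5 and 4.46 CPM at 3 dpi and 200.4, 309.2 and 143.6 CPM at 7 dpi, so it was highest in the middle where hsp90aa1.1 measured 9.15 CPM.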
